A study of Mus musculus with 14 samples.

Results

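The SOX transcription factor genes Sox1, Sox2, Sox4, Sox5, Sox6, Sox8, Sox9, Sox10, Sox11 and Sox21 were followed in 14 primary mouse cell lines. These 10 genes were chosen by name and are 10 of 35449 genes with summed counts. All lines were started from embryos at E13.5 and had no treatment. Neurospheres, floating cultures of neural stem and precursor cells, came from embryo heads, and mouse embryonic fibroblasts (MEFs), connective tissue cells, from bodies without internal organs. The groups were 3 KO and 3 WT neurosphere lines and 5 KO and 3 WT MEF lines, with 1 library per line. KO stands for a targeted H3f3a gene, which the series title calls a knockout-first model, and WT lines carry the unchanged gene. H3f3a is one of the genes for the histone variant H3.3, and H3f3b, the other, was not targeted. Strain, sex and the layout of the targeted allele are not given in the labels. The labels call the lines independent but do not say which came from the same embryo, so a p-value here measures the spread between lines.

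The libraries held 1669406 to 3296178 counts of transcript 3′ ends. H3f3a stood at 26.2 to 70.7 CPM (counts scaled to library size) in KO and 1964 to 2409 CPM in WT neurospheres, and at 7.27 to 18.8 CPM in KO and 844 to 1422 CPM in WT MEFs, as the genotype labels say. The cell type labels were checked with marker genes. The summed level of 11 neural stem cell genes was 2909 to 5774 CPM in neurospheres and 73.5 to 184 CPM in MEFs, and that of 10 fibroblast genes was 54.5 to 168 CPM in neurospheres and 16418 to 25563 CPM in MEFs. KO MEFs 3 and WT MEFs 2, a line of each genotype, stand apart from the other MEF lines in several SOX genes. Results on MEFs for Sox2, Sox5, Sox6, Sox9 and Sox11 are therefore also given without either or both of them.

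SOX proteins bind DNA through an HMG box, a domain that sits in the minor groove and bends the helix, and they usually act together with a partner factor such as a POU or PAX protein. They are grouped by the likeness of this box. In neural tissue the SOXB1 factors keep precursors dividing and undecided, SOXB2 factors oppose them, SOXC factors act in newly formed neurons, SOXD factors modulate the others without an activation domain of their own, and SOXE factors guide glia and the neural crest. Outside the nervous system Sox9 with Sox5 and Sox6 directs cartilage formation.

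The HMG box is what the members share, so its coding sequence is shown first. The 30 bases below open the conserved core of the box in GENCODE M21 transcripts, read 5′ to 3′. Capitals mark bases that differ from Sox2.
Sox1: aagCggcccatgaacgccttcatggtGtgg
Sox2: aagaggcccatgaacgccttcatggtatgg
Sox21: aagCggcccatgaacgccttcatggtGtgg
Sox4: aagCggcccatgaacgccttTatggtGtgg
Sox11: aaACggcccatgaacgccttcatggtGtgg
Sox5: aagCgTccAatgaaTgccttcatggtGtgg
Sox6: aagCgAccAatgaaTgcGttcatggtTtgg
Sox8: aagCggcccatgaaTgccttcatggtGtgg
In these 8 genes 22 of the 30 positions held the same base. Sox1 and Sox21 were identical over this stretch, and each had 2 differences from Sox2. The SOXD genes Sox5 and Sox6 had the most base differences from Sox2, 5 and 6. All 8 stretches code for the same amino acids, so none of the marked bases changes the protein here. The stretch was located by its conserved amino acids, so it does not show how the boxes of the groups differ.

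Sox1, Sox2 and Sox21 were abundant in neurospheres and at or near 0 in most MEF lines, so their promoters are shown beside that of Sox4, the member with the highest level in MEFs. Each sequence is the RefSeq promoter of build GRCm38.p6, from 250 bases before a RefSeq start and 50 bases from it on, on the gene's strand. That start is the GENCODE gene start for Sox21 and lies 14 bases after it for Sox4 and 224 bases after it for Sox1, whereas for Sox2 it lies upstream of the GENCODE start given below. Capitals mark CG dinucleotides, the sites of DNA methylation.
Sox1, chr8:12395269-12395568, plus strand: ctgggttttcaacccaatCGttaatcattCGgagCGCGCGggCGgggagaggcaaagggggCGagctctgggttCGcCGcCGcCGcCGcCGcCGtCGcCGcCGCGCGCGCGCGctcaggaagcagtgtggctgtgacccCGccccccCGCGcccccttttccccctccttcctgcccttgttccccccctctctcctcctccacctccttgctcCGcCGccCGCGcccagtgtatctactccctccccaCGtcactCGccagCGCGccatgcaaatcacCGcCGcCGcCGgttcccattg
Sox2, chr3:34649745-34650044, plus strand: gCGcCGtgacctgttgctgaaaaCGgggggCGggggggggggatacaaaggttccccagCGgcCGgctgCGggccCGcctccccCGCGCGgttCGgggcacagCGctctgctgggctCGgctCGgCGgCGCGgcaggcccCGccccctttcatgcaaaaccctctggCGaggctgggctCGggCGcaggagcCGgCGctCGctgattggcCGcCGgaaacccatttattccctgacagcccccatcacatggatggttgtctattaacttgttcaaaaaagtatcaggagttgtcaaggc
Sox21, chr14:118236981-118237280, minus strand: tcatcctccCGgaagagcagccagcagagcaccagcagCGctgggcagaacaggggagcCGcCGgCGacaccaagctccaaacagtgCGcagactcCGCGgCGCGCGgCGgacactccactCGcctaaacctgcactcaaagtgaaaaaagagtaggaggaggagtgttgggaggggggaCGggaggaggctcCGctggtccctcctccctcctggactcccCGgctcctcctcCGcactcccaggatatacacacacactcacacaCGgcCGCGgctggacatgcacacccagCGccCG
Sox4, chr13:28953650-28953949, minus strand: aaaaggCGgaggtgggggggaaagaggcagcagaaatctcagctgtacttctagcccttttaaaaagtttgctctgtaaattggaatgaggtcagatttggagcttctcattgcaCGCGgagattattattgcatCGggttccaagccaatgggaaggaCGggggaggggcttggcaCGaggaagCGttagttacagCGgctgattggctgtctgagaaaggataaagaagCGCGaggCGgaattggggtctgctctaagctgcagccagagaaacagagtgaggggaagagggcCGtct
The Sox1 window held 37 CG, the Sox2 window 27 and the Sox21 window 22, against a median of 7 over 32851 promoters of this length. The Sox4 window held 12. Windows not shown held 21 CG in Sox11, which was read in every MEF line, 21 in Sox8, which had at most 1 count in any MEF line, 2 to 13 in the 6 windows of Sox6 and 3 in that of Sox5. The Sox5 start lies 834871 bases after the GENCODE gene start. For Sox6 the window with 11 CG starts 52 bases after it, and the others start 7749 to 237187 bases after it. These counts are thus mostly those of starts inside the genes. Of the letter strings ACAAAG and ACAAT, both known from SOX binding sites and searched on both strands, the Sox2 window held ACAAAG, which 18.7% of all promoters hold, and none of the 4 windows held ACAAT, which 31.0% hold. RefSeq promoters were matched for 8 members, with 13 windows in all.

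In neurospheres all members except Sox10 were read in every line. On the deposited TPM scale, which divides by transcript length, Sox2 had the highest mean at 449 TPM, followed by Sox4 at 251, Sox9 at 180, Sox21 at 137, Sox8 at 96.1, Sox5 at 53.7, Sox11 at 29.0, Sox6 at 28.5, Sox1 at 26.6 and Sox10 at 2.16 TPM (means of 6 lines). The ranges of all neighbours in this order overlapped apart from Sox1 and Sox10. Sox2 was above Sox4, Sox8 above Sox5 and Sox5 above Sox11 in 6 of 6 lines, whereas Sox4 was above Sox9 in 3 and Sox11 above Sox6 in 2 of the 6 lines. Tags from 3′ ends do not grow in number with transcript length. On the CPM scale, without that division, Sox4 came first with a mean of 1538 CPM, Sox2 had 952, Sox9 had 900 and Sox11 had 389.5 CPM. The orders seen in 6 of 6 lines with TPM were reversed on this scale. Sox4 was above Sox2 in 6 of 6 lines. Sox11 at 296 to 518 CPM lay above Sox5 at 173 to 294 CPM, and Sox5 lay above Sox8 at 47.1 to 134 CPM.

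In MEFs the order of mean TPM was Sox4 at 54.4, Sox9 at 36.0, Sox11 at 16.3, Sox5 at 6.30, Sox2 at 4.58 and Sox6 at 1.67 TPM over 8 lines. Sox10, Sox8, Sox21 and Sox1 stood below 0.3 TPM. The ranges of all neighbours overlapped, and single lines reached far above the rest in Sox2, Sox5 and Sox6. On the CPM scale the order was Sox4 at 334, Sox11 at 203, Sox9 at 169, Sox5 at 24.4, Sox6 at 12.1 and Sox2 at 9.29 CPM. Sox9 was above Sox11 in 8 of 8 lines with TPM, whereas Sox11 was above Sox9 in 6 of 8 lines with CPM. The 10 genes together made up 2959 to 6576 CPM in the neurosphere lines and 631 to 838 CPM in the MEF lines.

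**Figure D1:**
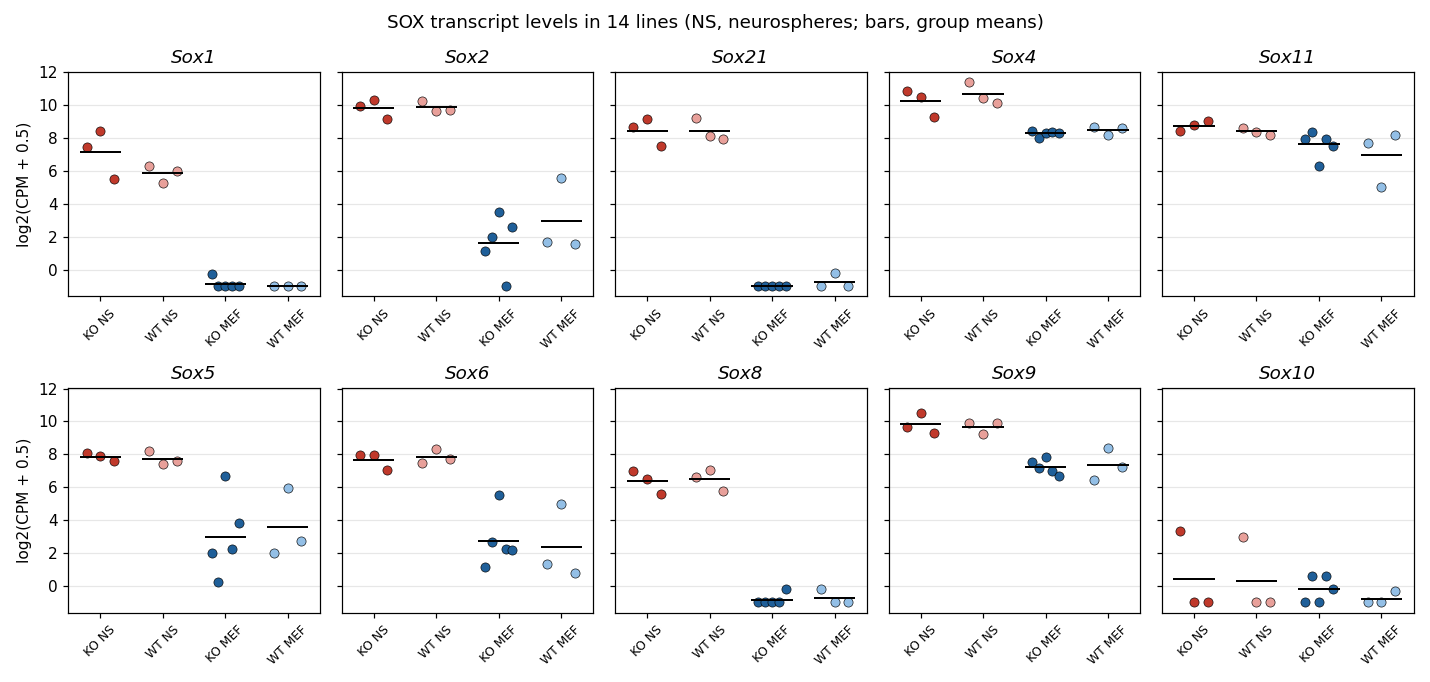
Transcript levels of the 10 SOX genes in each line, as log2(CPM + 0.5), with KO and WT neurospheres (NS) left of KO and WT MEFs. Points are lines and bars are group means. Within each genotype the neurosphere lines lie above the MEF lines in all panels except that of Sox10, and KO MEFs 3 and WT MEFs 2 stand high in Sox5 and Sox6.

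Neurospheres were compared with MEFs separately in KO and in WT lines, which share no library. The filter on low counts asked for 3.69 CPM in KO and 3.70 CPM in WT comparisons, reached in at least 3 lines. In KO lines Sox4, Sox5, Sox6, Sox9 and Sox11 reached this in both cell types, and by the edgeR quasi-likelihood test all 5 were higher in KO neurospheres than in KO MEFs, where 25.4% of 11413 tested genes were called higher. In WT lines Sox4, Sox9 and Sox11 reached it in both cell types, and 2 of these 3 were higher, where 20.8% of 11080 tested genes were called higher; Sox11 did not pass the threshold. The levels of these members did not overlap between cell types, which held in this direction for 24.2% of tested genes in KO and 28.2% in WT lines. Sox1, Sox2, Sox8 and Sox21 in both genotypes, and Sox5 and Sox6 in WT lines, were tested only because of the neurospheres, where they are high. These 4 in KO and 6 in WT lines were called higher too, but a difference was nearly a condition of their being tested, so their values are given as a description. Sox10 was too low to be tested.

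Among the SOXB genes, Sox2, the factor that keeps neural stem cells self-renewing (chr3:34650405-34652461, plus strand, a single exon), had 979.5, 1283 and 576 CPM in KO neurospheres and 1.72, 3.42, 10.7, 0 and 5.64 CPM in KO MEFs. In WT lines it had 1248.5, 788 and 838 CPM in neurospheres and 2.77, 47.7 and 2.43 CPM in MEFs. All neurosphere lines were more than an order of magnitude above all MEF lines, and WT MEFs 2 was the highest MEF line. The log2 difference was 7.87 in KO lines (SE 0.73) and 5.79 in WT lines (SE 1.16) in the edgeR fit. Without KO MEFs 3 it was 8.49, and without WT MEFs 2 it was 8.51.

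Sox1, an early marker of the neural plate (chr8:12395295-12400126, plus strand, a single exon), had 178, 352 and 45.7 CPM in KO neurospheres and 78.6, 37.7 and 64.9 CPM in WT neurospheres. In MEFs it had 1 count over the 5 KO lines and 0 counts over the 3 WT lines. The neurosphere level was 2223 times the MEF level in KO lines (95% counting interval 398 to 87888) and at least 178-fold higher in WT lines, taking 3 counts over the group as the most that 0 counts allow. Such intervals and limits cover counting error only.

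Sox21, the SOXB2 gene that pushes precursors towards differentiation (chr14:118233232-118237030, minus strand, a single exon), had 403, 577 and 180.5 CPM in KO neurospheres and 607, 281 and 244 CPM in WT neurospheres. It had 0 counts over the KO MEF lines and 1 count over the WT MEF lines. It was thus at least 1583-fold higher in KO neurospheres, and in WT neurospheres 3267 times the MEF level (95% counting interval 586 to 129090). Sox3, the other SOXB1 gene, which is no member of the chosen set, had 104, 94.7 and 93.2 CPM in KO and 195, 174 and 37.9 CPM in WT neurospheres, and 0 counts in every MEF line. It was at least 436-fold higher in KO and at least 375-fold higher in WT neurospheres.

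The SOXC genes were read in both cell types. Sox4 (chr13:28948919-28953713, minus strand, a single exon), which acts in differentiating neurons and in many mesenchymal tissues, had 1879, 1446 and 634 CPM in KO neurospheres and 346, 261, 321, 328 and 321 CPM in KO MEFs. In WT lines it had 2718, 1408 and 1143 CPM in neurospheres and 414, 291 and 387 CPM in MEFs. The lowest neurosphere line, KO neurospheres 3, lay above the highest MEF line. Sox4 differed by a log2 of 2.09 in KO (SE 0.29, adjusted p = 0.000295) and 2.29 in WT lines (SE 0.37, adjusted p = 0.002342, edgeR).

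Sox11 (chr12:27334264-27342574, minus strand, a single exon), a close relative of Sox4 in immature neurons, had 341.5, 451 and 518 CPM in KO neurospheres and 242, 336, 78.9, 246 and 185 CPM in KO MEFs. In WT lines it had 397, 334 and 296 CPM in neurospheres and 210.5, 32.3 and 290.4 CPM in MEFs. The groups did not overlap in either genotype, but the highest MEF lines came close to the lowest neurosphere lines, and KO MEFs 3 and WT MEFs 2 were the lowest lines. The log2 difference was 1.02 in KO lines (SE 0.37, adjusted p = 0.04125, edgeR) and 0.96 in WT lines (SE 0.66, 95% interval -0.60 to 2.52, adjusted p = 0.2773), and these differences were not shown to differ (interaction log2 0.06, adjusted p = 1). The KO call was lost when any of KO MEFs 1, 4 or 5 or of the 3 KO neurosphere lines was left out (adjusted p = 0.0536 to 0.1219). Without KO MEFs 3 the difference was 0.83 and the call held (adjusted p = 0.01192), and without WT MEFs 2 it was 0.45 (adjusted p = 0.1576). Sox12, the remaining SOXC gene and no member of the set, had 10.2 to 23.0 CPM in KO and 15.3 to 26.5 CPM in WT neurospheres, and 4.50 to 10.3 CPM in KO and 7.91 to 12.5 CPM in WT MEFs. It was higher in neurospheres in both genotypes, with a log2 difference of 1.16 in KO (adjusted p = 0.02611) and 1.04 in WT lines (adjusted p = 0.04345, edgeR).

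The SOXD genes were read in every line of both cell types and were uneven in MEFs. Sox5 (chr6:143828425-144781977, minus strand) had 272, 239 and 193 CPM in KO neurospheres and 3.44, 0.68, 103, 4.15 and 13.54 CPM in KO MEFs. In WT lines it had 294, 173 and 193 CPM in neurospheres and 3.56, 61.3 and 6.08 CPM in MEFs. KO MEFs 3 and WT MEFs 2 stood far above the other MEF lines and still below every neurosphere line. The log2 difference was 3.30 in KO (SE 1.11, adjusted p = 0.03224, edgeR) and 3.24 in WT lines (SE 0.98). Without KO MEFs 3 it was 5.47 (adjusted p = 5.934e-05) and without WT MEFs 2 it was 5.47. The KO call was lost when any of KO MEFs 1, 4 or 5 or of the 3 KO neurosphere lines was left out (adjusted p = 0.0512 to 0.07585).

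Sox6 (chr7:115470872-116038796, minus strand), which forms dimers with Sox5 and is known in cartilage and in oligodendrocyte precursors, had 248, 252 and 134 CPM in KO neurospheres and 1.72, 5.81, 46.5, 4.15 and 4.14 CPM in KO MEFs. In WT lines it had 181, 327 and 212 CPM in neurospheres and 1.98, 31.6 and 1.22 CPM in MEFs. KO MEFs 3 and WT MEFs 2 were again the highest MEF lines. The log2 difference was 4.17 in KO (SE 0.87, adjusted p = 0.003337, edgeR) and 4.40 in WT lines (SE 1.08), and it was 5.76 without KO MEFs 3 and 7.22 without WT MEFs 2.

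Among the SOXE genes, Sox9 (chr11:112782224-112787760, plus strand), which starts the switch from making neurons to making glia and is the master regulator of cartilage, had 823, 1438.5 and 629 CPM in KO neurospheres and 181, 142, 229, 124 and 102 CPM in KO MEFs. In WT lines it had 947, 601 and 963 CPM in neurospheres and 85.5, 339 and 150.5 CPM in MEFs. The lowest neurosphere line stood above the highest MEF line, WT MEFs 2. Sox9 differed by a log2 of 2.65 in KO (SE 0.32, adjusted p = 0.000136) and 2.15 in WT lines (SE 0.50, adjusted p = 0.0124, edgeR). The WT call was lost without WT MEFs 3 (adjusted p = 0.05105), and the log2 difference was 2.82 without WT MEFs 2 and 2.85 without KO MEFs 3.

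Sox8 (chr17:25565892-25570686, minus strand), which acts beside Sox9 and Sox10 in glia, had 127, 91.1 and 47.1 CPM in KO neurospheres and 97.7, 134 and 53.5 CPM in WT neurospheres. It had 1 count over the KO MEF lines and 1 over the WT MEF lines, so that neurospheres held 1149 times the MEF level in KO lines (95% counting interval 205 to 45469) and 788 times in WT lines (141 to 31174). Sox10 (chr15:79154908-79165240, minus strand), the SOXE factor of committed oligodendrocyte, Schwann and pigment cell lineages, was read in a single neurosphere line of each genotype. It had 9.47, 0 and 0 CPM in KO and 7.25, 0 and 0 CPM in WT neurospheres, from 23 counts in KO neurospheres 1 and 19 counts in WT neurospheres 1. MEF lines held 0 to 3 counts, at most 1.04 CPM. A count of 0 allows up to 3 counts, so lower levels in the other neurosphere lines were not detectable at this depth.

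Genes of the same lineages gave values beside these. Of the oligodendrocyte list, 4 of 8 tested genes were higher and 3 were lower in KO neurospheres than in KO MEFs, where 25.4% of all tested genes were higher and 26.2% lower. In WT lines 4 of 7 were higher and 2 were lower, where 20.8% of all tested genes went each way. Most were tested only because of the neurospheres or only because of the MEFs, so these counts are a description. In KO lines 2 reached the filter in both cell types, and 1 of them was higher and 0 lower. In WT lines only Pdgfra did, and it was lower. Olig1 and Olig2, which start this lineage, had 693 to 1553 and 355 to 694 CPM in KO neurospheres, 1052 to 1743 and 432 to 715 CPM in WT neurospheres, and at most 0.72 CPM in MEFs. Pdgfra, a receptor of oligodendrocyte precursors and of fibroblasts, was lower, with means of 12.6 CPM in KO neurospheres against 87.5 CPM in KO MEFs and 10.1 CPM in WT neurospheres against 75.1 CPM in WT MEFs. Mbp, a myelin gene, was lower as well, with means of 1.29 CPM in KO neurospheres against 5.87 CPM in KO MEFs and 0 CPM in WT neurospheres against 4.48 CPM in WT MEFs. Ednrb, a receptor of the neural crest and of astroglia, was highest in the line with Sox10 reads in each genotype, with 1967, 1550 and 435 CPM in KO and 2946, 208 and 1253 CPM in WT neurospheres. Erbb3, a receptor of Schwann cells and their precursors, stood at 0 CPM in KO neurospheres and at most 0.35 CPM in WT neurospheres.

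The comparison of KO with WT neurospheres asked whether loss of H3f3a transcripts moved SOX levels in neural precursors. No member passed the edgeR test among the 9 tested, where 1 of 10624 genes did (0.00941%, H3f3a itself), and DESeq2 called no member either. No member's groups were apart without overlap, which held for 7.2% of tested genes. Sox1 was the only member with an unadjusted p under 0.05, which 2.14% of tested genes had.

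Sox1 averaged 192 ± 154 CPM in KO and 60.4 ± 20.8 CPM in WT neurospheres (SD, n = 3 lines each). KO neurospheres 2 and 1 were above all WT lines, and KO neurospheres 3 lay within their range. The log2 difference was 1.67 (SE 0.68, 95% interval 0.05 to 3.30, adjusted p = 0.9992, edgeR), and it was 0.89 without KO neurospheres 2. Elavl4, the early neuron gene with the smallest p of its list, had a difference of 1.71 (SE 0.69, adjusted p = 0.9992, edgeR). The 10 tested genes of that list had 7 positive and 3 negative differences with a median of 0.17, and its relative Elavl3 had -0.58. Sox3, the other SOXB1 gene read in these cells, had -0.46 (SE 0.53).

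The other members lay close to equal or had wide intervals. The log2 difference between KO and WT neurospheres was -0.0035 for Sox2 (95% interval -0.76 to 0.75), 0.05 for Sox21 (-1.07 to 1.18) and -0.40 for Sox4 (-1.44 to 0.64). It was 0.37 for Sox11 (-0.19 to 0.93), 0.11 for Sox5 (-0.48 to 0.69) and -0.18 for Sox6 (-0.92 to 0.56). For the SOXE genes it was 0.22 for Sox9 (-0.58 to 1.01) and -0.10 for Sox8 (-1.09 to 0.89). Among these 8 genes the interval was narrowest for Sox11 and widest for Sox21.

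**Figure D2:**
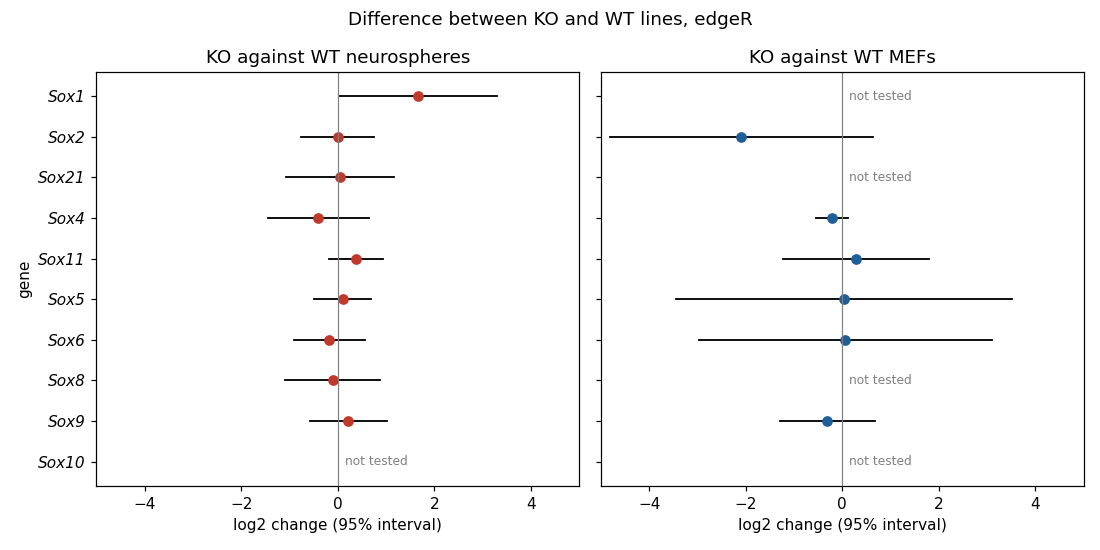
Log2 change of each SOX gene in KO against WT neurospheres (left) and KO against WT MEFs (right) from edgeR, with 95% intervals. Every interval crosses 0 apart from Sox1 in neurospheres, whose lower bound is 0.05, and the intervals of Sox2, Sox5 and Sox6 in MEFs are several times wider than in neurospheres.

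The neurosphere lines also differed among themselves. KO neurospheres 3 had the lowest Sox2, Sox4, Sox6, Sox8 and Sox21 of all neurosphere lines, and at 518 CPM the highest Sox11. WT neurospheres 1 had the highest Sox4 and Sox21, and KO neurospheres 2 the highest Sox1, Sox2 and Sox9. The ratio of the highest to the lowest line was 9.33 for Sox1, 4.29 for Sox4, 3.36 for Sox21 and 2.85 for Sox8, and it was 2.43 for Sox6, 2.39 for Sox9, 2.23 for Sox2, 1.75 for Sox11 and 1.70 for Sox5.

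**Figure D3:**
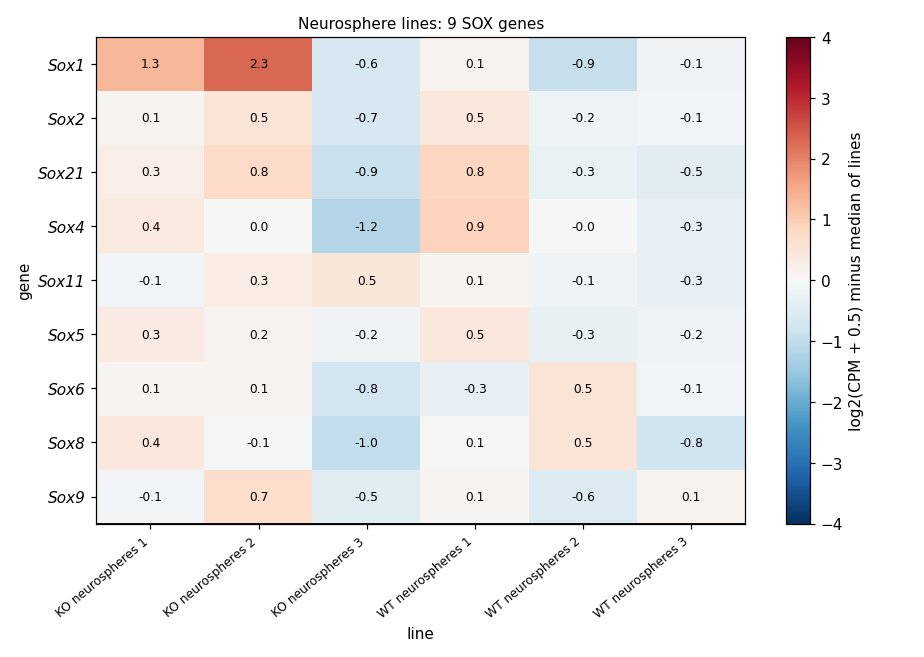
Levels of 9 SOX genes in the 6 neurosphere lines, as log2(CPM + 0.5) minus the median of the 6 lines, KO lines left. KO neurospheres 3 is low in most genes and high in Sox11, and Sox1 varies most.

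In KO against WT MEFs 6 members were tested, and no member passed the edgeR threshold, where 1 of 10785 genes did (0.00927%, again H3f3a). No member had an unadjusted p under 0.05, which 1.62% of tested genes had, no member's groups were apart without overlap, which held for 1.85%, and DESeq2 called none. Sox4 was the most closely known, with a log2 difference of -0.21 (95% interval -0.55 to 0.13). Sox9 had -0.31 (-1.29 to 0.68) and Sox11 0.29 (-1.22 to 1.80). For the remaining members the interval was very wide, with -2.09 for Sox2 (-4.81 to 0.63), 0.04 for Sox5 (-3.44 to 3.51) and 0.06 for Sox6 (-2.97 to 3.09), all with adjusted p = 0.9996. Single lines decided these values. Without WT MEFs 2 the log2 difference was 0.67 for Sox2, 2.30 for Sox5, 2.91 for Sox6, 0.40 for Sox9 and -0.20 for Sox11, and without KO MEFs 3 it was -2.14 for Sox5, -1.55 for Sox6, -0.49 for Sox9 and 0.50 for Sox11. Without both, it was 0.14 for Sox5, 1.31 for Sox6, 0.21 for Sox9 and 0.0082 for Sox11, and no member was called in any of these fits.

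The 8 MEF lines held their SOX genes in a shared pattern. KO MEFs 3 and WT MEFs 2 were the highest lines in Sox2, Sox5, Sox6 and Sox9 and the lowest in Sox11, whereas Sox4 had 321 and 291 CPM there, within the range of the other lines. Genes shown beside them were picked after their values were seen. Hapln1, a cartilage matrix gene, had 86.7 CPM in KO MEFs 3 and 54.1 CPM in WT MEFs 2, and at most 1.505 CPM in the other 6 lines. Lhx2, a patterning factor of brain and limb, had 47.0 and 45.2 CPM in these lines and at most 4.56 CPM in the others. Tfap2b, a neural crest factor, had 71.2 and 156 CPM there and at most 10.04 CPM in the others. Map2, a neuronal microtubule gene, had 79.9 and 146 CPM there and at most 13.3 CPM in the others.

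Lum, a connective tissue proteoglycan, was also high in both lines, with 112 CPM in KO MEFs 3 and 106 CPM in WT MEFs 2, against at most 27.5 CPM in the other lines. Thy1, a fibroblast surface gene, was low in them, with 129 and 103 CPM, against 556 to 746 CPM in the other lines, and Nes, a gene of neural and mesenchymal precursors, had 33.9 and 16.1 CPM there, against 67.1 to 159 CPM in the others. Summed levels of marker lists, several of which hold genes just named, also differed in these lines. The astrocyte and radial glia list summed to 1285.5 CPM in KO MEFs 3 and 1549 CPM in WT MEFs 2, against 354 to 568.3 CPM in the other MEF lines, with 5 and 6 of its 10 genes read there. Most of these sums was a single gene, Nfib, at 1049 and 1304.5 CPM, which had at least 270 CPM in every MEF line. The astrocyte genes Gfap and Aqp4 had no counts in MEFs. The neural crest list summed to 123 and 224 CPM in these lines against 6.57 to 32.2 CPM in the others, with 4 of its 11 genes read in each, and the cartilage list to 659 and 381 CPM against 221 to 365 CPM, with 7 and 11 of its 12 genes read. The neural stem cell list was lowest in them, at 87.7 and 73.5 CPM against 96.7 to 184 CPM. It holds Nes, shown because it is low there, and also Lhx2, which is high there at 47.0 and 45.2 CPM. The sum thus does not show that the genes of this list were low together. The fibroblast list stood at 25563 CPM in KO MEFs 3 and 18218 CPM in WT MEFs 2, against 16418 to 22972 CPM in the other lines, with all 10 genes read in every line, and Sox1 and Sox21, the SOXB genes of neural precursors, had at most 1 count in any MEF line. What part a different makeup of cells has in the levels of these lines was not tested, and in bulk RNA fewer cells of a type and less RNA per cell cannot be told apart.

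**Figure D4:**
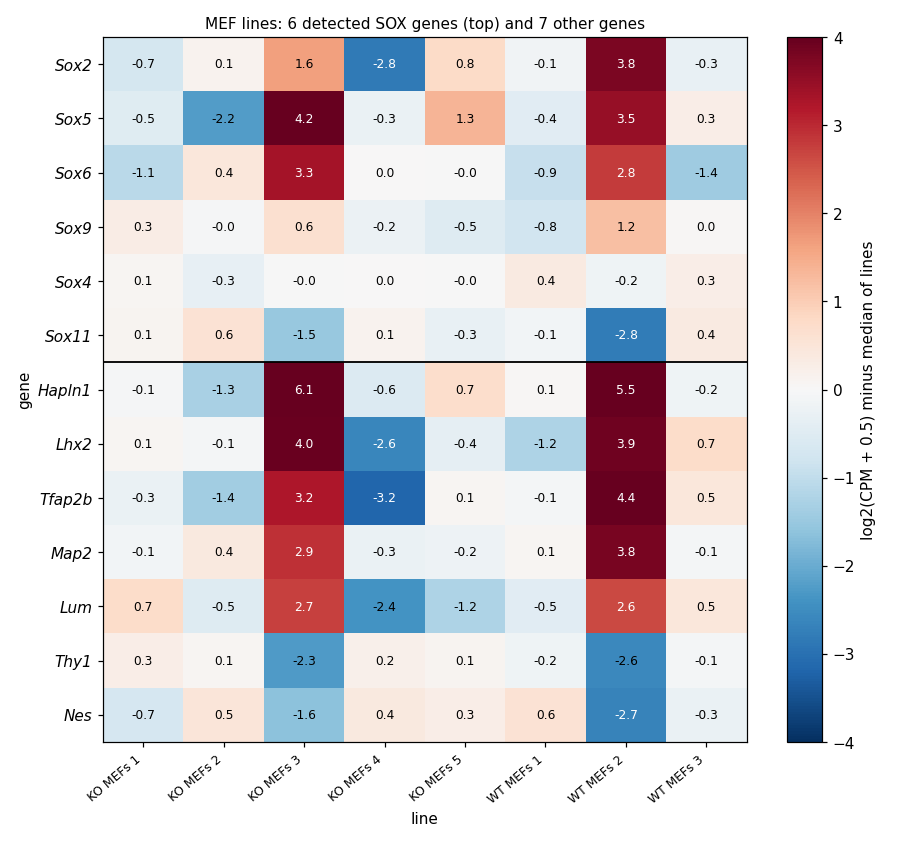
Levels of 6 SOX genes and 7 other genes in the 8 MEF lines, as log2(CPM + 0.5) minus the median of the 8 lines, KO lines left; colours stop at 4 either way. KO MEFs 3 and WT MEFs 2 show the same pattern, high in Sox2, Sox5, Sox6, Hapln1, Lhx2, Tfap2b, Map2 and Lum and low in Sox11, Thy1 and Nes.

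The genotype by cell type interaction, which asks whether the KO difference was unequal in neurospheres and MEFs, was called for no member among 9 tested by edgeR or DESeq2. For Sox1, Sox8 and Sox21 each MEF group held 0 or 1 count. Their KO difference in MEFs was thus hardly measured, and the interaction could not show for them whether it was unequal. Over all genes edgeR called 0 of 12113 (0%), with 3.02% at an unadjusted p under 0.05, and no member had such a p. The estimates ran from -0.23 for Sox6 (95% interval -3.38 to 2.92) to 2.08 for Sox2 (-0.71 to 4.87), and that of Sox2 was -0.64 without WT MEFs 2.

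For Sox5, Sox6 and Sox8 the files spread reads over several transcripts. In 12 of the 14 lines most Sox5 reads were given to the transcript Sox5-214, with 88.0%, 83.6% and 81.5% in KO neurospheres and 84.0% and 85.2% in WT neurospheres 1 and 3. In KO MEFs 3 and WT neurospheres 2 no read was given to Sox5-214, and 80.9% and 76.5% went to Sox5-201, which had none in any other line. The summed Sox5 level does not depend on this split, whereas its TPM can, through the transcript's length. Sox6-210 took 94.4% of Sox6 reads in neurospheres and 88.2% in MEFs. Sox8-201 took 78.5% in KO and 75.3% in WT neurospheres, and Sox8-202 the rest. Transcripts on the opposite strand overlap exons of Sox4 over 2616, Sox5 over 1330, Sox21 over 713 and Sox8 over 329 annotated bases, and those genes are not listed in the files and were not analysed here.

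Genes known to work with SOX factors or to mark the cells around them were read as lists. Of the neural stem cell list, 9 of 10 tested genes were higher in neurospheres than in MEFs in each genotype and none was lower, where 25.4% of all tested genes were higher in KO and 20.8% in WT lines. Of these 10 genes, 8 were tested only because of the neurospheres, so the count is a description. Both genes that reached the filter in both cell types were higher, which were Nes and Pou3f3 in KO and Nes and Fabp7 in WT lines. Nes had a log2 difference of 1.60 in KO (adjusted p = 0.01287) and 2.17 in WT lines (adjusted p = 0.03961, edgeR). Fabp7, a radial glia gene, averaged 3194 CPM in KO neurospheres against 3.84 CPM in KO MEFs and 2360 CPM in WT neurospheres against 5.60 CPM in WT MEFs. Pou3f2, a POU partner of Sox2, averaged 119.6 CPM in KO neurospheres against 3 counts over the KO MEFs and 136 CPM in WT neurospheres against 1 count over the WT MEFs. Of the astrocyte and radial glia list 9 of 9 were higher in KO and 6 of 7 in WT neurospheres, and of the 4 that reached the filter in both cell types 4 and 3 were higher, beside the same shares of all tested genes. Of the early neuron list 7 of 10 were higher and 1 was lower in KO, and 5 of 9 were higher and 1 was lower in WT neurospheres. In each genotype 4 of the higher genes were tested only because of the neurospheres. Of those that reached the filter in both cell types 3 of 5 were higher in KO and 1 of 4 in WT neurospheres, beside 25.4% and 20.8% of all tested genes. The lower gene was Stmn2, a growth cone gene, at 0 CPM in KO neurospheres against a mean of 9.83 CPM in KO MEFs. It was tested only because of the MEFs.

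Of the 12 cartilage genes, known targets of Sox9, Sox5 and Sox6, 3 were tested in each genotype. Col9a3 was tested only because of the neurospheres and Col2a1 only because of the MEFs. Their opposite directions were thus nearly set by the filter and are given as a description. Only Col11a1 reached the filter in both cell types. Col9a3 averaged 15.5 CPM in KO neurospheres against 2 counts over the KO MEFs and 38.8 CPM in WT neurospheres against 3 counts over the WT MEFs. Col11a1 was lower in neurospheres, with a log2 difference of -4.87 in KO and -3.29 in WT lines, and Col2a1, the classic Sox9 target, averaged 0.20 CPM in KO neurospheres against 10.5 CPM in KO MEFs and had no counts in WT neurospheres against 7.47 CPM in WT MEFs. The list's summed level was 26.5 to 36.0 CPM in KO and 29.4 to 129.8 CPM in WT neurospheres, and 221 to 659 CPM in KO and 289 to 381 CPM in WT MEFs. All 10 fibroblast genes were lower in neurospheres in both genotypes, where 26.2% of tested genes were lower in KO and 20.8% in WT neurospheres; 8 of them were tested only because of the MEFs, and Fn1 and Prrx1 reached the filter in both cell types. No gene of any list passed the edgeR threshold between KO and WT lines in either cell type.

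As a last description, the genes whose levels ran most like each member were found by Pearson correlation of log2 CPM after taking away each group's mean, over 14 libraries and 6736 genes of at least 20 CPM. The libraries share depth and line differences, so these values carry no test. Sox1, Sox8 and Sox21 had at most 1 count in any MEF line, so their values rest mainly on the neurosphere lines. Sox2 ran most like Afdn (0.94), Rabgap1l (0.93) and Cirbp (0.91). Sox1 ran most like Dazap2 (0.95), Gna13 (0.935) and Zfp827 (0.93), which had 0.43, 0.29 and 0.52 within MEFs alone. Sox21 had Zfp827 (0.94), Rsrp1 and Lrch2, and Sox4 had Apc (0.94), Lhfpl3 and Mbtd1. Sox6 was nearest to Trabd2b (0.98), Pcdh10 (0.97) and Bmp4 (0.97), and within neurospheres alone Bmp4 had 0.42. Sox5 was nearest to Zbtb4 (0.95; -0.37 within neurospheres), Slc39a9 and Snx13, and Sox11 to Nln (0.95), Mpped2 and Slc38a4, the last with -0.78 within neurospheres. For Sox9 they included Mrps31 (0.95) and Megf9, and for Sox8 Bclaf1 (0.89), Slc44a2 and Polr2e.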

How the data were processed

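Transcript 3′ ends were sequenced with the QuantSeq forward kit in 14 lines, per the labels' protocols. The deposited files give, per transcript, expected counts and TPM, made by the authors with Salmon 1.1.0 according to the submitters' processing notes; edgeR is named there without a version. The transcript set and its build were not given in the sources used here. Reads of identical stretches, such as between close relatives, are shared out by such estimates, so single transcripts are less certain than genes. Transcripts were matched to GENCODE M21 on GRCm38. Of 116945 listed, 115560 matched with version and length and 385 by identifier alone, and the 1000 unmatched, with 0.251% to 0.425% of reads, were left out. Expected counts were summed per gene and rounded.

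For each comparison a separate edgeR 4.0.16 model (R 4.3.3; TMM scaling, default filter on low counts by group, robust quasi-likelihood test) was used, with Benjamini-Hochberg adjustment over all tested genes, a threshold of 0.05 and no fold minimum. The 95% intervals come from that test. Printed CPM use TMM factors over all 14 libraries, so ratios of printed means differ somewhat from fitted values. Genes with 0 or 1 count in a group are given as ratios of summed counts with exact intervals, or against a limit of 3 counts. PCR copies cannot be told apart. Alternatives were DESeq2 1.42.0 as a test and its size factors in edgeR, no filter and a filter at 5 CPM, deposited TPM (pseudocount 1) in limma 3.58.1, a replicate block, 1 fit over all libraries, and lines left out.

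Members, gene lists and the lines left out together were chosen with earlier results of these data known. Named are all 10 members, all other SOX genes with reads in a test, up to 4 genes of a list per comparison by smallest p, and the 3 genes most like each member; some items under this rule are not reported here. Hapln1, Lhx2, Tfap2b, Map2, Lum, Thy1, Nes, Nfib and Erbb3 in single lines, Gfap and Aqp4 in MEFs, Olig1, Olig2 and Ednrb by line, and Nes and Pdgfra between cell types, are shown because of their values. Sequences come from GENCODE M21 transcripts and RefSeq promoters and were matched by symbol.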

Additional observations from a re-analysis of the deposited data

Results flagged for a closer look

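Among 6 SOX genes tested for a line far from the others of its group, 2 stood out in the 5 KO MEF lines by Dixon's test, and the line was KO MEFs 3 both times. These were Sox5, with 102.7 CPM in KO MEFs 3 and 0.68 to 13.54 CPM in the other KO MEF lines, and Sox6, with 46.5 CPM against 1.72 to 5.81 CPM. Chance passes the limit in about 1 group in 20 where values are normally spread. That rate does not carry over to uneven CPM, to genes that run alike, or to a line already known to stand apart. Of the 7 genes shown beside them, which were picked because they differ in this line and so say nothing of a rate, those past the same limit were Hapln1 at 86.7 CPM, Lhx2 at 47.0 CPM, Tfap2b at 71.2 CPM, Map2 at 79.9 CPM and Lum at 112 CPM, all high, and Thy1 at 129 CPM, low. The WT MEF group has 3 lines and was not tested in this way; WT MEFs 2 had 61.3 CPM of Sox5 and 31.6 CPM of Sox6.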

How the results depend on the processing

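The number of SOX genes called stayed at 0 between KO and WT lines in either cell type and in the interaction under every alternative and with each line left out. It was 7 to 9 for KO neurospheres against KO MEFs and 6 to 8 for WT neurospheres against WT MEFs, and no log2 difference between cell types changed sign. Sox5 was not called without a filter (adjusted p = 0.1075 in KO and 0.1275 in WT lines) nor, in WT lines, in the fit over all 14 libraries (0.06495), and Sox6 was not called in WT lines without a filter (0.08069). Over the alternatives and the lines left out, 9 results between cell types were weaker in WT lines, and not all of them are named here. Sox11 in KO lines was not called without a filter (0.06727), with TPM (0.07904) or in the fit over all libraries (0.1201). DESeq2 gave no adjusted p for Sox2 in WT and Sox6 in KO lines.

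The replicate block was fitted although same-numbered lines did not deviate together in every pair (correlations -0.59 to 0.22). It changed no count of SOX calls between KO and WT lines, left 7 of 9 in KO neurospheres against KO MEFs, where Sox5 (log2 4.96, adjusted p = 0.06453) and Sox11 (1.19, adjusted p = 0.1377) were no longer called, and left 8 in WT lines. With the replicate block, log2 values that changed sign were -0.20 for Sox5 and 0.165 for Sox9 in KO against WT MEFs, and -0.39 for Sox1, -0.028 for Sox9 and -0.12 for Sox11 in the interaction.

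None of the KO against WT values was called, so the following changes of sign are within error. With TPM they were -0.18 for Sox5 and -0.0895 for Sox6 in MEFs, -0.017 for Sox5 and -0.013 for Sox21 in neurospheres, and -0.15 for Sox8 and -0.23 for Sox11 in the interaction. Sox2 in neurospheres was 0.0013 with DESeq2 and with its size factors, and 0.0034 with the stricter filter. With KO MEFs 3, WT MEFs 2, KO neurospheres 3 and WT neurospheres 2 left out, Sox9 was 0.21 in MEFs, Sox2 0.13, Sox6 0.36 and Sox8 0.54 in neurospheres, and Sox4 0.14 and Sox5 -0.0499 in the interaction. Leaving out 1 line at a time gave in MEFs -2.60 to 0.67 for Sox2, -2.14 to 2.30 for Sox5, -1.55 to 2.91 for Sox6, -0.66 to 0.40 for Sox9 and -0.20 to 0.84 for Sox11. In neurospheres it gave -0.30 to 0.24 for Sox2, -0.72 to 0.0422 for Sox4, -0.0315 to 0.36 for Sox5, -0.35 to 0.12 for Sox6, -0.44 to 0.24 for Sox8, -0.20 to 0.44 for Sox9 and -0.37 to 0.56 for Sox21. In the interaction it gave -0.49 to 1.66 for Sox1, -0.64 to 2.68 for Sox2, -0.55 to 0.26 for Sox4, -2.16 to 2.21 for Sox5, -3.05 to 1.35 for Sox6, -1.46 to 1.68 for Sox8, -0.17 to 0.85 for Sox9 and -0.49 to 0.56 for Sox11. The causes were not tested. Depth limits Sox10 and the MEF levels of Sox1, Sox8 and Sox21, which rest on 0 to 23 counts a line.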

Other observations

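The remaining SOX genes of the annotation (Sox7, Sox14, Sox15, Sox17, Sox18, Sox30 and Sry) had at most 4 counts in any line and Sox13 at most 15, so the SOX reads of neurospheres lay mainly in Sox3, Sox12 and the members named above. In MEFs the macrophage and blood genes summed to 6.23 to 36.9 CPM in KO and 20.97 to 78.5 CPM in WT lines, the skeletal muscle genes to 18.9 to 79.0 CPM in KO and 10.04 to 55.8 CPM in WT lines, and the epithelial genes to at most 15.4 CPM. In neurospheres the endothelial genes summed to 6.59 to 8.38 CPM in KO and 7.63 to 15.4 CPM in WT lines.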
